A study of Bos taurus with 72 samples.

Results

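Blood transcriptomes of 6 beef cattle were compared between entry to the feedlot and the stage named pulled, animal by animal. These are the animals whose library titles end in a number above 100. They carry the animal numbers 2 to 7 in the labels and are called by those here. Their 12 entry and pulled libraries are part of 72 libraries from 24 male cattle, each sampled at entry, when pulled and at close-out. The labels give the stage, the animal and the sex. They give no diagnosis, treatment, breed, age, date or library batch, so stage also carries age and time on feed, and a group is whole blood of untyped animals. RNA came from PAXgene tubes, was kept at an RNA integrity above 7.5 and was selected by its poly-A tail, per the labels.

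In feedlot practice a pulled animal is one taken from its pen because it looks ill, most often with bovine respiratory disease, the subject in the series title. That disease follows the stress of transport and mixing, and viruses and bacteria of the airways act in it together. Whole blood RNA holds transcripts of neutrophils, lymphocytes, monocytes, platelets and young red cells. A lower level of a transcript in such bulk samples cannot tell fewer cells of a type from less RNA per cell. The count table gives Ensembl gene identifiers and no names. Of these identifiers, 0 matched the RefSeq gene table at hand, so 2 genes that rose and 2 that fell are given by identifier, and neither their roles nor blood cell markers can be described.

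The animals were picked on a measured value, and that value is a description here. On the first principal component of log2 CPM, a read level scaled to the size of the library, which held 38.8% of the variance of the 72 libraries, the entry libraries of the 6 lay apart from the others. Their entry scores were 101 in animal 2, 96.5 in 3, 52.0 in 4, 34.4 in 5, 60.5 in 6 and 55.1 in 7. The other 18 animals scored from -92.5 to 1.11 at entry, with a median of -42.5. At the boundary of the title numbers, animal 24, whose title number is 98, scored -38.7 and animal 2, the first above 100, scored 101. Every entry library of the 6 thus lay above every entry library of the 18. The entry values enter each pulled against entry difference below, so those differences describe these 6 animals and are no independent evidence that they stand apart.

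At the pulled stage the scores were -8.21 in animal 2, -51.0 in 3, 52.1 in 4, -14.3 in 5, -20.2 in 6 and -7.61 in 7. These libraries except that of animal 4 had moved below all 6 entry libraries, and animal 4 scored alike at both stages. The other 18 scored from -89.7 to 63.5 at pulled, with a median of 29.6, against -11.3 in the 6. The -89.7 came from the library labelled animal 9, which did not match its animal, as described below. The next lowest of the 18 scored -22.8, above animal 3. At close-out the 6 scored from -28.5 to 36.1, inside the range of the other 18 (-73.3 to 71.1).

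**Figure D1:**
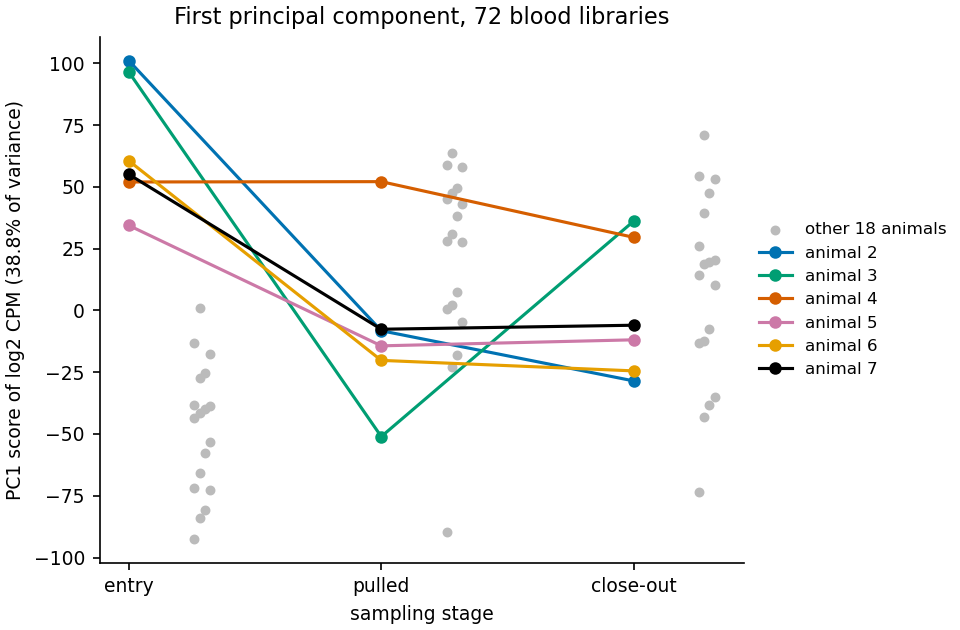
Score of each library on the first principal component (y axis, log2 CPM, 38.8% of variance) at the 3 sampling stages (x axis). Coloured lines join the 3 libraries of each of the 6 animals and grey points are the other 18 animals; at entry the 6 lie at 34.4 or above and the 18 at 1.11 or below, and animal 4 stays at 52.0 and 52.1 from entry to pulled.

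The labels of the 6 animals matched their libraries. Over 100 genes whose differences between animals repeated best in 16 of the other 18, each entry library correlated best with the pulled library of its own animal (6 of 6, lowest value 0.83, highest between different animals 0.18, across genes and with no test). No 2 of the 18 libraries of these animals were near copies, since the lowest chi-square of their counts was 29.1 per degree of freedom, where sampling noise gives about 1. Total counts ran from 12.8 M to 19.4 M (M, mega) over the 12 libraries, with 17.3 ± 1.01 M at entry and 15.9 ± 2.59 M at pulled (SD, n = 6), lower at pulled in 5 of 6 animals. The 10 genes with the most reads took 8.44% ± 1.17 of the counts at entry and 6.53% ± 1.41 at pulled (SD, n = 6), lower at pulled in 6 of 6 animals. The TMM scaling factor was higher at pulled in 6 of 6 animals, with 0.803 ± 0.0925 at entry and 1.00 ± 0.117 at pulled (SD, n = 6). The part of these library measures in the gene calls was not tested. Among the other 18 animals, 2 pulled libraries did not match their animal. Over the same 100 genes, the pulled library of animal 9, by its label, had a correlation of -0.07 with the entry library of that animal and of 0.97 with that of animal 11, and differed from the latter by a chi-square of only 1.46 per degree of freedom. For the pulled library of animal 12, by its label, the correlations with entry and close-out of that animal were 0.15 and 0.14. The main tests and levels that rest on these libraries are given with and without them in the text. The principal component, the scaling of levels and the fits of all 72 libraries include them throughout.

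Pulled and entry libraries differed in 27.1% of the genes. Of 11880 genes tested with animal as a block, 1657 were higher and 1565 lower at pulled (edgeR quasi-likelihood test, adjusted p under 0.05), which is 13.9% and 13.2% of the genes tested. The rises were larger than the falls. Genes that rose had a median log2 fold change of 1.31 and genes that fell one of -0.84, against 0.02 over all genes tested, and 1230 rises but 500 falls exceeded 2-fold. The furthest genes reached 3.36 and -3.56. All 6 pairs moved the same way in 1120 of the genes called higher (67.6%) and in 1241 of those called lower (79.3%). Among all genes tested, 1593 (13.4%) were higher and 1642 (13.8%) lower in 6 of 6 pairs. The called genes were chosen on these same pairs, which favours a shared direction. In 539 genes (4.54% of those tested) every pulled library lay above every entry library, and in 432 (3.64%) every pulled library lay below.

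These counts sit close to the threshold. Without animal 6 or without animal 7 edgeR called 0 genes, although 3846 and 4183 genes then had an unadjusted p under 0.05 (limma-voom called 0 without animal 6, and 911 higher and 725 lower without 7). Without animals 2 and 3 in turn the counts were 577 higher and 666 lower, and 895 and 885. Leaving out animal 4 raised them to 2321 and 2177. Against a 1.5-fold change 0 genes passed in edgeR (2427 at an unadjusted p under 0.05). With libraries scaled by their totals only, 3659 genes were higher and 525 lower, so that the share of falls went from 48.6% to 12.6% while the median change of all genes moved to 0.36.

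ENSBTAG00000046158 rose most among the called genes that were higher in all 6 pairs and averaged 3 log2 CPM or more. Its entry levels were 3.52 log2 CPM in animal 2, 2.55 in 3, 2.11 in 4, 7.79 in 5, 2.51 in 6 and 3.56 in 7. Its pulled levels, in the same order, were 9.22, 6.20, 5.04, 8.25, 5.60 and 6.99 log2 CPM. Animal 5 was already high at entry and rose by 0.46 log2 units, while the other 5 rose by 2.93 to 5.71, and the entry and pulled ranges overlapped through that animal. The read counts behind these levels ran from 65 in animal 4 at entry to 8315 in animal 2 at pulled. The fitted log2 fold change was 3.24 (SE 0.59). With no block for the animal it was 2.12 and not past the threshold (edgeR adjusted p = 0.155; 0.0165 with the block).

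ENSBTAG00000017367 rose in all 6 animals, from 2.50 to 7.06 log2 CPM in animal 2 and from 1.35 to 7.29 in 3. It went from 3.04 to 4.09 in animal 4, from 6.23 to 7.69 in 5, from 3.14 to 5.94 in 6 and from 3.95 to 5.82 in 7. The smallest rise was in animal 4 and the largest in 3, and the entry level of animal 5 again lay inside the pulled range. The log2 fold change was 2.80 (SE 0.65).

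ENSBTAG00000001032 fell most under the same rule. Its entry levels were 6.63 log2 CPM in animal 2, 6.06 in 3, 4.55 in 4, 4.68 in 5, 6.47 in 6 and 5.12 in 7. At pulled they were 1.77, 3.92, 4.10, 1.86, 3.01 and 2.42 log2 CPM. The groups did not overlap, although animal 4 fell by 0.45 log2 units and animal 2 fell by 4.86. The log2 fold change was -2.78 (SE 0.51).

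ENSBTAG00000043550 was among the genes with the most reads, with 31126 to 87836 counts at entry and 6396 to 26477 at pulled. Its level went from 12.83 to 9.69 log2 CPM in animal 2, from 12.62 to 10.87 in 3 and from 12.10 to 8.86 in 4. In animals 5, 6 and 7 it went from 11.35 to 9.44, from 12.11 to 9.70 and from 11.45 to 9.87 log2 CPM. All 6 pulled libraries lay below all 6 entry libraries, and here animal 4 had the largest fall of the 6 (-3.24). The log2 fold change was -2.35 (SE 0.29). These 4 genes were chosen for large changes in these libraries, which favours large values. All 4 lost the adjusted threshold without animal 6 (edgeR adjusted p from 0.0678 to 0.0698) and without animal 7 (0.0507), where their log2 fold changes were between 2.79 and 3.24 for the rises and between -2.83 and -2.37 for the falls.

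**Figure D2:**
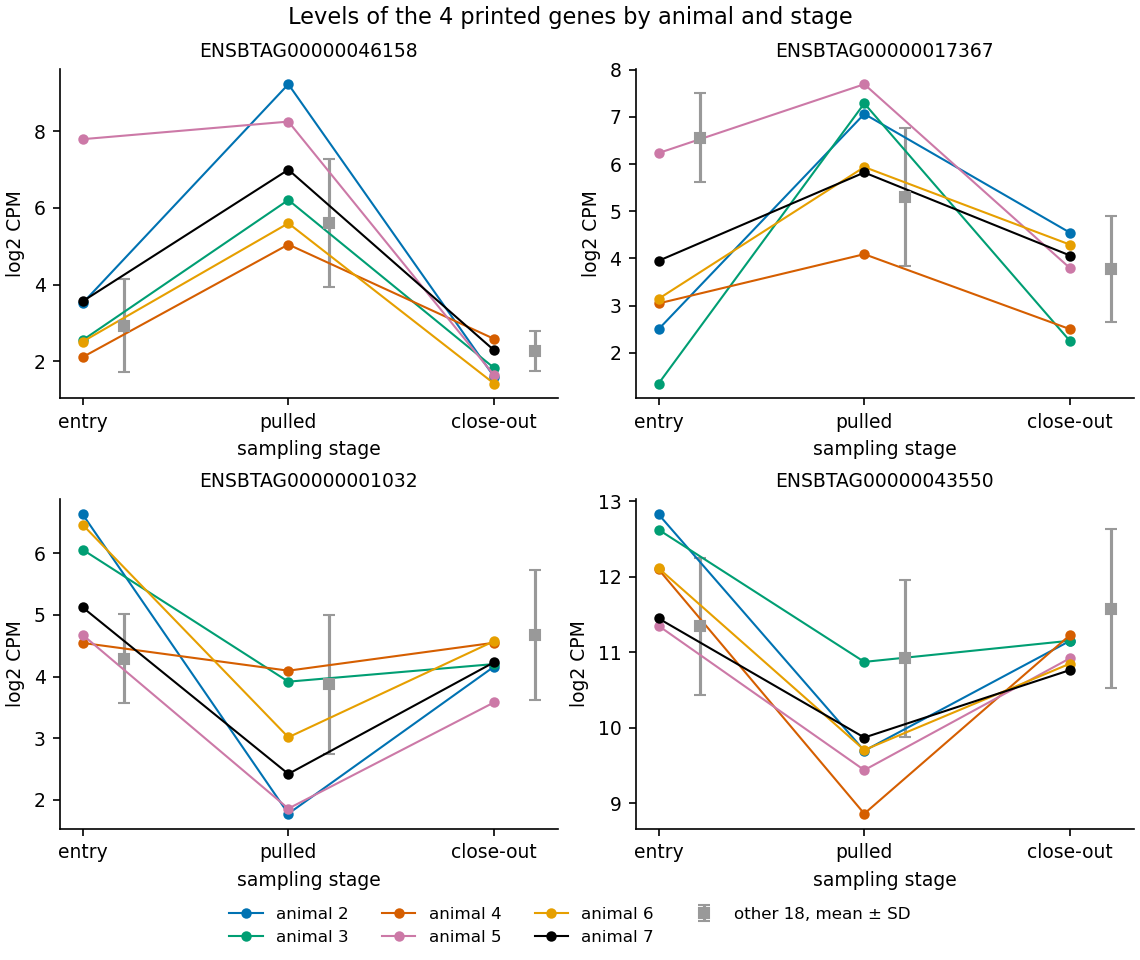
Levels of the 4 genes (y axis, log2 CPM, a separate scale per panel) at the 3 stages (x axis). Lines are the 6 animals and grey squares with bars the mean ± SD of the other 18, animals 9 and 12 included; the 2 upper genes are higher and the 2 lower genes lower at pulled in each of the 6 animals, and animal 4 has the smallest change of ENSBTAG00000001032 and the largest of ENSBTAG00000043550.

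Animal 4 moved least over all genes. The median absolute difference between its pulled and entry libraries was 0.28 log2 units over the 11880 genes, against 0.47 in animal 5, 0.52 in 7, 0.56 in 6, 0.84 in 2 and 0.88 in 3. More than a 2-fold difference was seen in 7.72% of genes in animal 4 and in 43.6% in animal 3. Of the 535 called rises that held in exactly 5 of 6 pairs, the exception was animal 4 in 481, and of the 315 such falls it was animal 4 in 191. Across genes the differences of animal 4 correlated with those of the other 5 at 0.05 to 0.25, while the 10 pairs among those 5 correlated at 0.23 to 0.79 with a median of 0.60 (all libraries share 1 scaling, and no test was made).

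Genes chosen on 5 animals were then read in the remaining one. For each animal the 100 genes with the smallest p in each direction were taken from a fit on the other 5. Of the 100 rising genes, 99 were higher at pulled in animal 2, 100 in 3, 61 in 4, 88 in 5, 100 in 6 and 99 in 7. Of the 100 falling genes, 98, 79, 97, 99, 100 and 100 were lower, in the same order. In animal 4 the rising genes had a median difference of 0.12 log2 units and 46.2% of all genes tested were higher, against 61 of these 100. Its falling genes had a median of -0.38. In animal 3 the medians were 3.50 and -0.93. Over all genes called without animal 4, 54.8% of 2321 rises were higher and 71.5% of 2177 falls lower in it. The medians there were 0.05 and -0.16 log2 units. So most of the 100 falling genes fell in each of the 6 animals, by different amounts. The 100 rising genes were split in direction in animal 4. Of all genes tested, 50.3% (animal 3) to 53.6% (animal 7) were higher at pulled in the other 5 animals. The entry libraries that the animals were picked on enter both the gene choice and the reading. That favours agreement, so these counts describe the set and are no independent test.

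**Figure D3:**
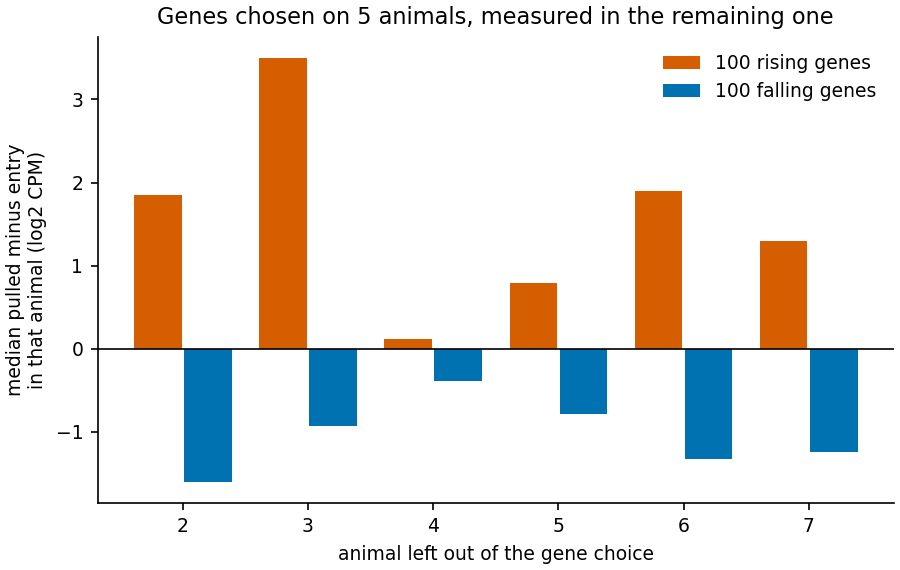
Median difference between pulled and entry (y axis, log2 CPM) in each animal (x axis, animal number) over 100 rising (orange) and 100 falling (blue) genes chosen on the other 5 animals. The rising genes reach 3.50 in animal 3 and 0.12 in animal 4; the falling genes lie between -1.60 and -0.38.

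Over the 6 animals together, the calls differed in direction by the read level of the gene. Genes were divided into 4 bins of equal size by mean log2 CPM over the 12 libraries (not divided by gene length). In the lowest bin 17.1% of genes were called higher and 5.82% lower, and in bin 2 21.4% and 5.69%. Bin 3 was even, with 13.5% and 14.3%. In the highest bin, from 6.04 log2 CPM up, 3.70% were called higher and 26.9% lower. Of the 100 genes with the most reads, 0 were called higher and 47 lower, with a median log2 fold change of -0.66. With library totals only, where all values shift upwards, the highest bin had 442 higher and 294 lower calls and the 100 genes had 2 and 32, so the balance of calls in the highest bin depends on the scaling. From the lowest bin to the highest the median log2 fold changes were 0.27, 0.29, -0.01 and -0.29 with TMM and 0.61, 0.64, 0.33 and 0.05 with library totals, a shift of nearly the same size in every bin. Animal 4 did not show the pattern over the bins: its median differences were -0.06, -0.03, -0.02 and -0.06 log2 units, and its lowest bin minus its highest was -0.00, against 0.54 or more in each of the other 5 animals.

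**Figure D4:**
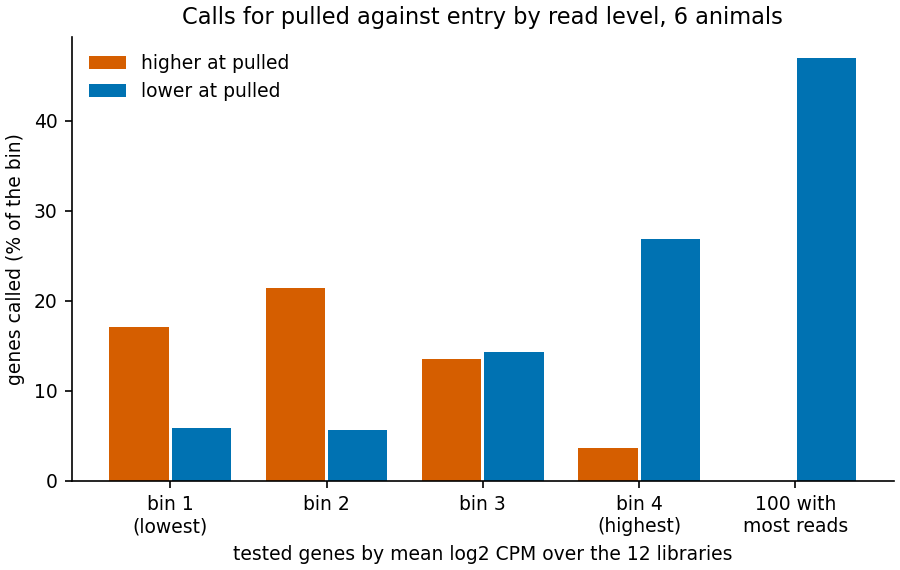
Percentage of tested genes called higher (orange) or lower (blue) at pulled (y axis) by read level (x axis, 4 bins of mean log2 CPM and the 100 genes with the most reads), 6 animals, TMM scaling. Calls go from 17.1% higher and 5.82% lower in the lowest bin to 3.70% and 26.9% in the highest, and to 0 and 47 of the 100 genes.

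A share of counts needs no scaling factor. The 100 genes with the most reads held 28.9% of the counts of animal 2 at entry and 22.7% at pulled, 28.2% and 22.7% in 3, and 25.7% and 20.4% in 4. In animals 5, 6 and 7 the shares were 29.3% and 22.9%, 26.7% and 18.8%, and 26.1% and 18.9%. All 6 pulled shares lay below all 6 entry shares. Pulled minus entry was -5.37 percentage points in animal 4, the smallest fall, and from -5.48 to -7.87 in the others. At close-out the share was 21.5% ± 1.18 (SD, n = 6), near the 21.0% ± 1.95 at pulled. In the other 18 animals the same genes held 22.9% ± 1.74 at entry and 25.1% ± 2.40 at pulled (SD, n = 18), and without animals 9 and 12 22.8% ± 1.69 and 25.3% ± 2.45 (SD, n = 16). The called genes shifted in step: those called higher held 2.13% ± 0.744 of counts at entry and 6.24% ± 1.78 at pulled, and those called lower 39.3% ± 6.05 and 24.9% ± 4.00 (SD, n = 6). The 100 genes and the lists of called genes were all chosen on these 12 libraries. Among them are the entry libraries that the animals were picked on. The shares therefore describe the set and are no test of it against the other animals.

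Close-out against pulled does not use the entry libraries. Of 12181 genes tested in the same 6 animals, close-out levels were above pulled levels in 89 and below them in 132 (edgeR, 0.731% and 1.08%), with median log2 fold changes of 1.49 and -1.84. The largest fall was -5.17. The 2 genes that had risen fell again in 6 of 6 animals: ENSBTAG00000046158 to 1.89 ± 0.45 log2 CPM (SD, n = 6; log2 fold change -5.00, SE 0.67, edgeR adjusted p = 0.0102) and ENSBTAG00000017367 to 3.57 ± 0.97 (log2 fold change -2.71, SE 0.47, edgeR adjusted p = 0.03). ENSBTAG00000043550 rose again in 6 of 6, to 11.01 ± 0.19 log2 CPM (log2 fold change 1.26, SE 0.25, edgeR adjusted p = 0.0418). ENSBTAG00000001032 was also higher in 6 of 6 but did not pass (log2 fold change 1.37, SE 0.29, edgeR adjusted p = 0.0568). Both comparisons share the pulled libraries on which the genes were chosen, which favours such a return. Over the whole lists, 59 of 1655 genes called higher at pulled were called lower at close-out and 1 higher, with a median log2 fold change of -0.25, and 42 of 1551 called lower were called higher and 0 lower, with a median of 0.11 (all genes tested, -0.02). Leaving out 1 animal gave 17 to 294 genes higher and 40 to 388 lower. The most came without animal 3, the fewest without 7, and DESeq2 gave 287 and 427.

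Close-out and entry libraries of the 6 also differed. Close-out against entry, which shares the entry libraries, gave 2782 genes higher and 2530 lower among 12023 tested (edgeR, 23.1% and 21%), with medians of 0.99 and -0.69. The counts without 1 animal ran from 1525 to 3217 higher and from 1547 to 2815 lower, lowest without animal 6. On this contrast neither gene that had risen passed. The log2 difference of ENSBTAG00000046158 was -1.58 (SE 0.72, edgeR adjusted p = 0.102), and that of ENSBTAG00000017367 was 0.24 (SE 0.54, edgeR adjusted p = 0.738). For ENSBTAG00000046158 the animals ran from -6.15 to 0.48 log2 units. The lowest was animal 5, which went from 7.79 log2 CPM at entry to 1.64 at close-out. ENSBTAG00000001032 and ENSBTAG00000043550 were below entry in 5 and in 6 of the 6 animals, at -1.39 (SE 0.29) and -1.07 (SE 0.19). The spread between the 6 animals was widest at pulled, with a median SD per gene of 0.46 log2 units, against 0.39 at entry and 0.32 at close-out.

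The other 18 animals are set beside the 6 as values, because the division was made on the entry libraries. In the 18, pulled against entry gave 3964 genes higher and 4572 lower among 12374 tested (edgeR, 32% and 36.9%), and 4155 and 4688 without animals 9 and 12. The genes called higher in the 6 had a median log2 fold change of 1.31 in the 6 and -0.90 in the 18, and those called lower -0.84 and 0.42. Without animals 9 and 12 the medians in the remaining 16 were -1.02 and 0.49. ENSBTAG00000046158 was higher at pulled in 14 of the 18 (log2 fold change 2.63, SE 0.58) and in 12 of the 16 without animals 9 and 12. ENSBTAG00000017367 was lower in 14 of the 18 (-1.31, SE 0.47) and in 14 of the 16. Its entry level was 6.56 ± 0.94 log2 CPM in the 18 (SD, n = 18) and 3.37 ± 1.65 in the 6, while its pulled levels, 5.30 ± 1.46 and 6.32 ± 1.32, were closer. In the 16 its levels were 6.67 ± 0.94 at entry and 5.03 ± 1.296 at pulled (SD, n = 16). ENSBTAG00000001032 and ENSBTAG00000043550 had log2 fold changes of -0.41 (SE 0.24) and -0.48 (SE 0.34) in the 18. In the 16 the values of the 4 genes were 2.31 (SE 0.56), -1.68 (SE 0.42), -0.47 (SE 0.25) and -0.32 (SE 0.36), in the order given.

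The pulled libraries, on which the animals were not picked, were compared between the 6 and the rest. They come from the same animals as the entry libraries. Deviations of same-animal entry and pulled libraries correlated at a median of 0.27 in the 6, so this test is not fully free of the picking. With all 24 pulled libraries 0 of 12526 genes (0%) passed in edgeR, although 2323 had an unadjusted p under 0.05. Limma-voom also gave 0, while DESeq2 called 63 higher and 60 lower in the 6. A comparison without the pulled libraries of animals 9 and 12 was added after counts of called genes had been seen. In it, 799 genes were higher and 248 lower in the 6 than in the other 16 (edgeR, 6.41% and 1.99% of 12463 tested). The median differences were 0.98 and -0.59 log2 units.

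That result depends on single libraries and on the tool. Limma-voom called 0 genes without these 2 libraries (3476 at an unadjusted p under 0.05), and DESeq2 called 1149 higher and 653 lower. Leaving out animal 3, 5 or 6 as well gave 0 genes in edgeR (2342, 3086 and 3094 at an unadjusted p under 0.05), and leaving out 4 as well gave 1881 higher and 1280 lower. With 4 bins of read level over these 22 libraries, 5.20% of the genes tested in the lowest bin were called higher and 0.45% lower. The shares were 11.8% and 0.61% in bin 2, 6.87% and 1.80% in bin 3 and 1.73% and 5.10% in the highest bin, so the share of higher calls did not run steadily with read level. None of the 4 genes passed: their differences between the 6 and the 16 were 1.22 (SE 0.71) for ENSBTAG00000046158, 1.08 (SE 0.55) for ENSBTAG00000017367, -1.19 (SE 0.54) for ENSBTAG00000001032 and -1.42 (SE 0.45) for ENSBTAG00000043550 (edgeR adjusted p = 0.258, 0.199, 0.147 and 0.0527). At close-out 2 of 12767 genes were higher in the 6 than in the 18 and 0 were lower (edgeR, 0.0157% and 0%). At an unadjusted p under 0.05 there were 1168, and the calls were 5 and 0 in limma-voom and 32 and 31 in DESeq2.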

How the data were processed

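The authors deposited raw read counts per Ensembl gene, 1 column per library and with no normalization. TopHat2, HTSeq and genome build UMD3.1 were used per the submitters' processing notes; the sources used here do not give versions, annotation release or strand setting. All 72 columns matched a sample title (0 unmatched). The table held 24616 genes, 4766 of them with no count. Reads shared by near-identical or overlapping genes cannot be traced.

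Counts were analysed in R 4.3.3 with edgeR 4.0.16: filterByExpr, TMM, quasi-likelihood test, animal as block, only the libraries compared, Benjamini-Hochberg adjustment over all genes tested. An SE is the size of the log2 change over the square root of its F statistic. Levels are log2 CPM scaled over 72 libraries (prior count 2). The labels give the animal, which makes the pairs; deviations of same-animal entry and pulled libraries correlated at -0.04 to 0.56 (median 0.27; -0.09 between animals). Printed genes were the 2 largest changes per direction among called genes averaging 3 log2 CPM or more and moving alike in 6 of 6 pairs. The 33 gene lists fixed by symbol could not be applied. The animals, rules and lists were chosen with earlier results of these data known. Alternatives were other scalings, filters, thresholds and fits, DESeq2 1.42.0, limma-voom (limma 3.58.1) and leaving out animals. The edgeR fits were tested on simulated data.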

Additional observations from a re-analysis of the deposited data

Results flagged for a closer look

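Among 29 groups of 6 values examined, 1 value lay far from the others; chance alone gives about 1 in 20. ENSBTAG00000046158 stood at 7.79 log2 CPM in animal 5 at entry, while the other 5 entry libraries lay between 2.11 and 3.56. The gap to the nearest animal was 0.744 of the range of the group.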

How the results depend on the processing

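The pulled against entry counts in the 6 animals (1657 higher, 1565 lower in edgeR) were 3659 and 525 with library totals only, 2699 and 2443 with the 18 libraries of the 6 animals in one fit, and 3208 and 2696 with all 72 libraries. Against a 1.5-fold change, and at an adjusted p of 0.01, edgeR called 0 and 0 (2427 and 5117 genes at an unadjusted p under 0.05). Leaving out 1 animal gave 0 to 2321 higher and 0 to 2177 lower in edgeR, and 1955 to 3561 and 1823 to 2937 in the fit of all 72 libraries (3357 and 2694 without animal 5, 2732 higher without animal 6, 2876 higher without animal 7). In limma-voom it gave 0 to 2400 higher and 0 to 2284 lower, with 1015 and 906 without animal 2, 1071 and 1038 without animal 3, and 911 and 725 without animal 7. DESeq2, limma-voom with all 6 animals, RLE scaling, other low-count filters and the fit with no replicate block (1972 and 1572) stayed within 1.5 times. Each of the 4 printed genes kept its direction under 29 alternatives.

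Close-out against pulled (89 and 132) gave 185 higher with library totals only, where the share of falls went from 59.7% to 42.2%, 287 and 427 with DESeq2, and 214 lower with no low-count filter. It gave 20 and 52 against a 1.5-fold change, 13 and 33 at an adjusted p of 0.01, 47 higher with no replicate block, 142 higher in the fit of 18 libraries and 307 and 310 in that of 72. Leaving out 1 animal gave 17 to 294 higher and 40 to 388 lower. Close-out against entry (2782 and 2530) gave 5719 and 464 with library totals only, 422 and 208 against a 1.5-fold change, 1128 and 1286 at an adjusted p of 0.01, and 1525 to 3217 and 1547 to 2815 without 1 animal. The replicate block changed no other count by over 1.5 times.

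For the pulled libraries, 6 against 18 gave 63 and 60 with DESeq2, and 0 to 51 and 0 to 5 without 1 of the 6 animals. Leaving out the pulled libraries of animals 9 and 12, a comparison added after counts of called genes had been seen, gave 799 and 248 in edgeR. Combined with that, alternatives chosen after seeing the data gave 0 and 0 in limma-voom (3476 genes at an unadjusted p under 0.05), 1149 and 653 in DESeq2, 1252 and 92 with library totals only, and 0 to 1881 and 0 to 1280 without 1 more animal. The close-out libraries (2 and 0) gave 32 and 31 with DESeq2, 5 higher with limma-voom, and 0 higher with library totals only, against a 1.5-fold change and at an adjusted p of 0.01. They gave 0 to 2 higher and 0 lower without 1 animal. The limma-voom and 72-library fits without 1 animal were also added after seeing the data. The cause of these differences was not tested. At this depth 11880 of 24616 genes passed the filter on low counts for pulled against entry, and nothing is reported on the others.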
